A study of Mus musculus with 11 samples.

Results

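H3K4me3, the trimethylated histone mark of active and poised promoters, was compared between cap mesenchyme and embryonic stem (ES) cells by setting their deposited peak lists side by side. Peaks on chromosomes 1 to 19 and X were used, 32920 in cap mesenchyme and 66694 in ES cells, together 99614 of the 378873 peaks in the 6 lists of the series. A peak was called kept when at least 1 bp of it lay under a peak of the other list. A cap mesenchyme peak without a partner was called gained, and an ES peak without one was called lost. Cap mesenchyme was taken at E18.5 from the kidneys of mice of genotype Cited1nuc-TagRFP-T, by sorting for Cited1-RFP, a nuclear red reporter driven by Cited1; the strain was of (C57BL/6 x DBA)F1 origin, kept on a C57BL/6J background (N5). ES cells were the wild-type line E14, of 129/Ola origin, at passage 15, which is 1 cultured line. The other readouts used were H3K27me3 in the same 2 populations and H3K4me3 in Hoxb7-GFP+ ureteric epithelium sorted from E15.5 Hoxb7myr-Venus/+ kidneys. RNA came from metanephric mesenchyme and, for Hoxb7 and Capn6, ureteric bud of E11.5 wild-type C57BL/6 embryos, dissected by hand. Cells were not fixed, and chromatin was cut with micrococcal nuclease before immunoprecipitation. With 1 sample in every group, the differences carry no replicate error and no p-value. Intervals are 95% exact binomial (Clopper-Pearson) intervals for shares and order-statistic intervals for medians, and they cover counting error only. The 2 populations differ in strain, culture and sorting as well as in cell type, and these cannot be told apart here.

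H3K4me3 is laid down by the SET1 and MLL (Kmt2) complexes and forms a narrow peak at most active CpG-rich promoters, while genes that define a cell type often carry broad domains that run into the gene. H3K27me3 is laid down by Polycomb repressive complex 2, whose subunits include Ezh2, Eed and Suz12. In ES cells the promoters of many developmental regulators hold both marks and are called bivalent. Cap mesenchyme is the pool of self-renewing progenitors that surrounds each tip of the ureteric bud and gives rise to nephrons, the filtering units of the kidney.

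The cap mesenchyme list covered 55.0 Mb with a median width of 1313 bp, and the ES list covered 136 Mb with a median of 1485 bp. The lowest deposited score was 50.01 in cap mesenchyme and 50 in ES cells, and the number of reads behind either list is unknown. The ES list is about as long as 2 cap mesenchyme lists, so counts of gained and lost peaks are also given below with the ES list shortened to the length of the cap list by score. The H3K27me3 lists were unlike in makeup, with 105945 peaks of median width 195 bp in cap mesenchyme and 12731 of median 655 bp in ES cells. They were used as deposited, so counts of H3K27me3 in the 2 populations are not on an equal footing. The labels were checked against marker genes at the gene start plus and minus 1 kb, which is the promoter window used throughout. The 10 cap mesenchyme markers had H3K4me3 in both populations, and 9 of the 10 were wider in cap mesenchyme, with a median of 10846.5 bp there and 2558 bp in ES cells. Sall1, a zinc finger factor of nephron progenitors and ES cells alike, was the exception with 13.8 kb in cap mesenchyme and 14.3 kb in ES cells. Of the 9 ES markers, 4 had H3K4me3 in cap mesenchyme and 8 in ES cells. Pou5f1, Nanog, Zfp42 and Dppa4 were at 0 in cap mesenchyme, and the outermost start of Esrrb was at 0 in both populations although a 37.3 kb ES peak lay within the gene. Because sorted cells are a mixture, a mark present in fewer cells and a weaker mark in each cell cannot be told apart.

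Promoters of 6 genes show the range of sequence behind the classes. They were chosen after their values were seen, 1 or 2 for each of 4 outcomes: wider in cap mesenchyme (Six2), gained (Capn6), narrower (Sox2 and Tdgf1) and lost (Nanog and Pou5f1). Each run gives 250 bases before the start and 50 after it, 5′ to 3′ on the gene's strand, from RefSeq on GRCm38.p6, with every CG in capitals. Six2 held 37 CpG in 300 bases and Sox2 held 27, while Pou5f1 held 11, Tdgf1 7, Capn6 5 and Nanog 4.
Six2, chr17:85688205-85688504, minus strand: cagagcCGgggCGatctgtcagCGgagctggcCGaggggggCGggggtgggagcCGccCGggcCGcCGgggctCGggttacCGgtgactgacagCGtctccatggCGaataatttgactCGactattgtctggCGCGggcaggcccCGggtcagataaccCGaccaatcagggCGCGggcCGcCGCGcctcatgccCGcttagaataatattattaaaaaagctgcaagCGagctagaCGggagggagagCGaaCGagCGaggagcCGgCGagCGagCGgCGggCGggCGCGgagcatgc
Capn6, chrX:143827363-143827662, minus strand: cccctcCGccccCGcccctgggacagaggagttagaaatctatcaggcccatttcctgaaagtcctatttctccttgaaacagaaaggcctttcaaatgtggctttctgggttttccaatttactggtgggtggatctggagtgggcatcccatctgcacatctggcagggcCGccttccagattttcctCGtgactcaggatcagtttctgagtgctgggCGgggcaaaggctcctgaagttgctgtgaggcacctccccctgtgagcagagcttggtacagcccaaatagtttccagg
Sox2, chr3:34649745-34650044, plus strand: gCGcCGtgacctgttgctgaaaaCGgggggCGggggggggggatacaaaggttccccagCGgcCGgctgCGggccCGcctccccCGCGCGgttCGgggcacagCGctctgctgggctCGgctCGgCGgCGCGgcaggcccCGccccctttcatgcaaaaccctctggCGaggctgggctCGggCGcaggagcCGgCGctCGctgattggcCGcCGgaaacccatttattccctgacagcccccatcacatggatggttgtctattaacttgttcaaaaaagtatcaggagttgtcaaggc
Tdgf1, chr9:110946109-110946408, minus strand: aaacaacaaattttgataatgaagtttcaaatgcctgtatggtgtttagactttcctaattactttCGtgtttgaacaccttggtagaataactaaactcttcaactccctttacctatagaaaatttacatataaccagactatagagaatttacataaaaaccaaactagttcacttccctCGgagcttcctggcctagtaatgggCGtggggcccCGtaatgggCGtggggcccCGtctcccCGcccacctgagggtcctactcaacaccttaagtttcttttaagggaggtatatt
Nanog, chr6:122707239-122707538, plus strand: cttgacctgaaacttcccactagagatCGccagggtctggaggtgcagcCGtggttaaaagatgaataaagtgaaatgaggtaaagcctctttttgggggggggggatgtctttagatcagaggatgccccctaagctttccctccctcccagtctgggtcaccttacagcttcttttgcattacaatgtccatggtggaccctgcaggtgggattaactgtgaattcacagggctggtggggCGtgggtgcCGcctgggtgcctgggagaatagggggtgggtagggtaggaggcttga
Pou5f1, chr17:35505782-35506081, plus strand: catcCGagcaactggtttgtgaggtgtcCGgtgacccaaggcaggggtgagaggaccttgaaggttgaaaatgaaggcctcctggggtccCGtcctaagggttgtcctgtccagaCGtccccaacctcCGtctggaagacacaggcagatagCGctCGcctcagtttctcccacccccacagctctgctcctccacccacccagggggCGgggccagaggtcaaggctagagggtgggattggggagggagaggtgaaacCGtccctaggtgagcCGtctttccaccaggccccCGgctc

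As deposited, most cap mesenchyme peaks lay where ES cells also had one, and most ES peaks had no counterpart in cap mesenchyme. Of the 32920 cap mesenchyme peaks, 9142 were gained, or 27.8% (27.3% to 28.3%), and 23778 were kept. Of the 66694 ES peaks, 43812 were lost, or 65.7% (65.3% to 66.1%), and 22882 were kept. In bases, 44.3 Mb were shared, which is 80.5% of the cap mesenchyme bases and 32.6% of the ES bases. Gained and lost peaks were small and had low scores. Median widths were 790 bp for gained and 1732 bp for kept peaks in cap mesenchyme, against 1245 bp for lost and 2418 bp for kept peaks in ES cells. Median scores, which rank peaks within a list only, were 102.71 for gained and 1179.25 for kept cap mesenchyme peaks, and 135.6 for lost and 596.605 for kept ES peaks. At equal list length, set by score, 13580 of 32920 cap mesenchyme peaks were gained (41.3%) and 14616 of 32920 ES peaks were lost (44.4%), so most of the difference between the shares depends on the length of the ES list.

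Wider peaks were kept more often, up to widths of 3 to 5 kb in cap mesenchyme and over all classes of width in ES cells. Among peaks under 1 kb, 42.1% of cap mesenchyme peaks and 9.94% of ES peaks were kept. Between 2 and 3 kb the shares were 97.6% in cap mesenchyme and 57.7% in ES cells. At 10 kb or more, 33 of 34 cap mesenchyme peaks were kept, and 460 of 521 ES peaks. With each list divided by score into 10 equal groups, the lowest group was kept in 34.0% of cap mesenchyme and 7.80% of ES cases. The highest group was kept in 99.6% of cap mesenchyme and 88.9% of ES cases. Overlap was seldom marginal: kept peaks with under 100 bp in common numbered 54 in cap mesenchyme and 60 in ES cells. A further 770 gained and 1680 lost peaks lay within 1 kb of a peak of the other list.

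**Figure D1:**
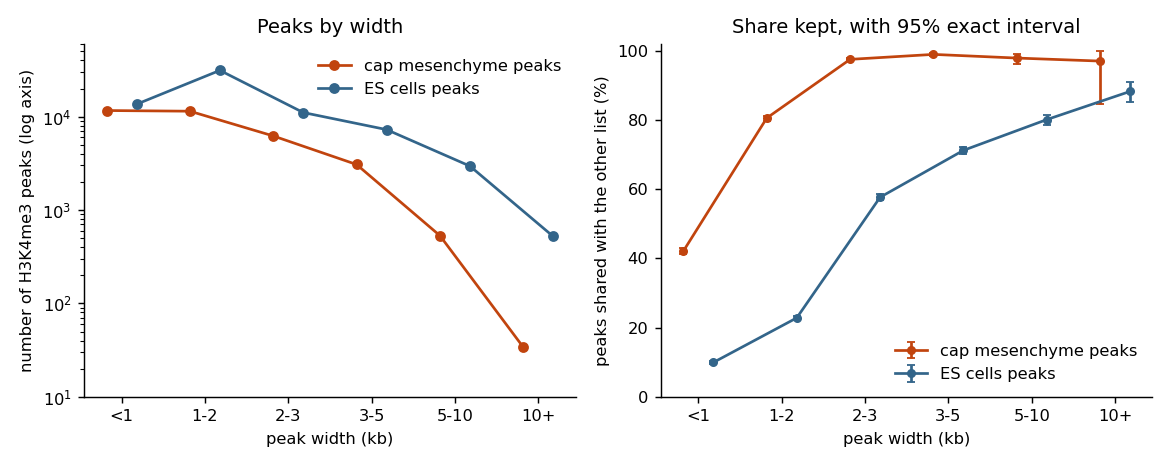
Left, number of H3K4me3 peaks (log axis) in 6 classes of peak width in kb, with cap mesenchyme in orange and ES cells in blue. Right, percent of those peaks that overlap the other list by at least 1 bp, with 95% exact intervals; cap mesenchyme climbs from 42.1% under 1 kb to 97.6% at 2 to 3 kb, and ES cells from 9.94% to 88.3% at 10 kb or more.

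Gained and lost peaks were mostly away from promoters. A promoter window was touched by 8.66% of gained and 61.6% of kept cap mesenchyme peaks, and by 6.26% of lost and 63.8% of kept ES peaks. Gene bodies held 53.5% of gained and 54.5% of lost peaks, and intergenic sequence held 37.8% and 39.2%. Read by place, 792 of 15447 promoter peaks of cap mesenchyme were gained (5.13%), against 47.8% of its gene body peaks and 47.7% of its intergenic peaks. In ES cells 2744 of 17353 promoter peaks were lost (15.8%), against 83.5% in gene bodies and 82.9% in intergenic sequence. The median distance to a gene start was 22.4 kb for gained peaks and 17.9 kb for lost peaks. Ureteric epithelium had H3K4me3 at 21.6% of gained peaks and at 1.65% of lost peaks, beside 77.1% of kept cap mesenchyme peaks and 78.4% of kept ES peaks. H3K27me3 of cap mesenchyme touched 3.47% of gained and 6.90% of lost peaks, and H3K27me3 of ES cells touched 1.49% and 1.45%. How far the depth of the lists differs is unknown, and its part in these shares was not tested.

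Gained peaks made up 15.7% of cap mesenchyme peaks on chromosome X (130 of 829, 13.3% to 18.3%), lower than on any autosome, where chromosome 11 was lowest at 20.7% and chromosome 18 highest at 35.8%. Chromosome X also had the highest share of promoter peaks, 64.9%. Outside promoters 38.1% of its 291 peaks were gained, close to the 37.4% on chromosome 11. The share of ES peaks lost on X was 67.0%, inside the autosomal range of 59.9% to 70.0%.

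Broad peaks of the 2 populations lay mostly at different genes. Peaks of 10 kb or more numbered 34 in cap mesenchyme and 521 in ES cells, and 10 in each list overlapped a broad peak of the other. The cap mesenchyme broad peaks had a median width of 12874 bp, and their widest ES partner a median of 5356 bp. ES broad peaks had a median of 12244 bp, and their widest cap mesenchyme partner a median of 3446.5 bp. In cap mesenchyme 32 of the 34 touched a promoter, and 24 (70.6%, 52.5% to 84.9%) lay on ES H3K27me3, beside 16.5% of all kept cap mesenchyme peaks. On cap mesenchyme H3K27me3 lay 6 (17.6%, 6.76% to 34.5%), beside 11.54%. In ES cells 436 of the 521 touched a promoter, 68 (13.1%) lay on cap mesenchyme H3K27me3, near the 12.3% of all kept ES peaks, and 18 (3.45%) on ES H3K27me3, beside 17.6%. These shares are not at equal width: all kept peaks had medians of 1732 bp in cap mesenchyme and 2418 bp in ES cells. A wider peak can meet H3K27me3 more easily. The widest cap mesenchyme peak (48.2 kb) lay over the starts of Hoxa3, Hoxa5, Hoxa6, Hoxa7, Hoxa9, Hoxa10 and Hoxa11, while Hoxa4 had a separate peak of 3.55 kb. The next ones lay over the starts of Hoxb3 to Hoxb8 (45.5 kb), Hoxc9 to Hoxc11 (35.5 kb), Nr2f2 (29.2 kb), Hoxd9 to Hoxd12 (26.8 kb), Meis2 (21975 bp), Pax2 (20.8 kb), Uncx (18491 bp) and Six2 (17.9 kb). The widest ES peaks covered Trim71 (45.4 kb), Tet1 (40.2 kb), Jarid2 (39.3 kb), Ctbp2 (39.1 kb), Esrrb (37.3 kb) and Jade1 (35.6 kb).

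At the level of genes, 33311 protein-coding and lncRNA genes had a promoter window. H3K4me3 was present in both populations at 16209 promoters (48.7%), in cap mesenchyme only at 670 (2.01%, gained), in ES cells only at 2541 (7.63%, lost) and in neither at 13891. The gained promoters were 330 protein-coding and 340 lncRNA genes, and the lost ones 1183 protein-coding and 1358 lncRNA genes. At equal list length the order turned round, to 1718 gained and 1277 lost, so the excess of lost over gained promoters depends on the length of the ES list. A gene has 1 window here, at its outermost start: 258 of the 670 gained genes had an ES peak elsewhere in the gene or within 1 kb of it, and 810 of the 2541 lost genes had such a cap mesenchyme peak.

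At promoters marked in both, H3K4me3 was narrower in cap mesenchyme. Widths are those of the peaks touching the window, with a median of 2359 bp in cap mesenchyme and 3097 bp in ES cells. The median log2 ratio of width, cap mesenchyme over ES cells, was -0.36 (-0.37 to -0.35), and it was below 0 at 84.0% of the 16209 promoters. At least 2-fold wider in cap mesenchyme were 160 promoters (0.987%), and at least 2-fold narrower 2662 (16.4%), so wider promoters were 5.67% of the 2 together. Centring the ratio on its median gave 353 wider and 1476 narrower, or 19.3% wider. The 160 wider promoters lay on 115 distinct cap mesenchyme peaks, and 21 of them were Hox genes. Part of a width ratio is how a domain was divided into peaks: a median of 44.2% of the bases of the 115 peaks was already under ES peaks, and 44 of the 115 overlapped at least 2 ES peaks. For the 2662 narrower promoters, a median of 41.1% of the ES peak was under cap mesenchyme peaks.

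**Figure D2:**
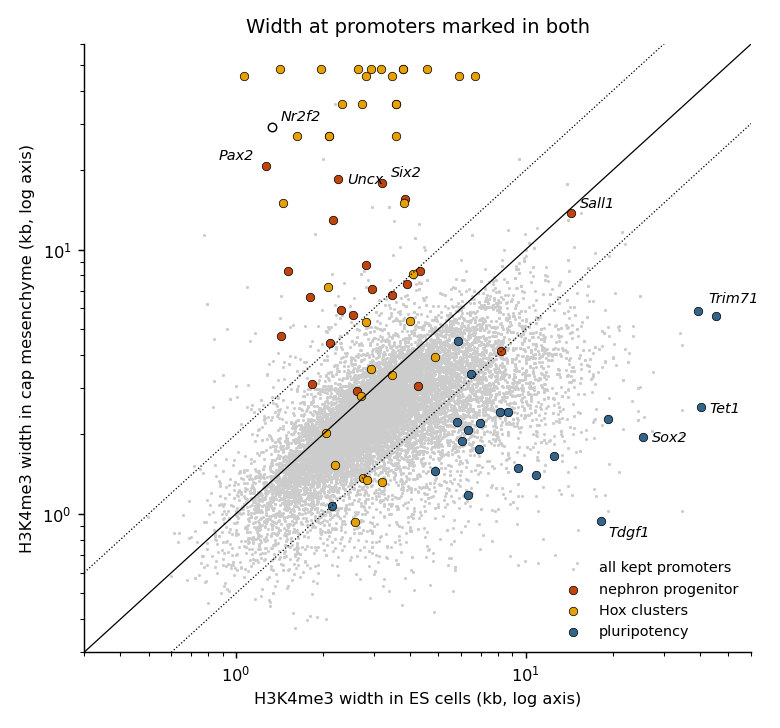
Width of H3K4me3 at each of 16209 promoters marked in both populations, with ES cells on the x axis and cap mesenchyme on the y axis (kb, both log axes). The solid line is equal width and the dotted lines mark 2-fold; nephron progenitor genes (red) and Hox genes (yellow) lie mostly above, pluripotency genes (blue) below, and the open point is Nr2f2.

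Nephron progenitor genes kept H3K4me3 and held it over wider domains in cap mesenchyme. Of the 25 genes listed, 24 were kept, 1 was gained and none was lost; 16 were at least 2-fold wider and none was at least 2-fold narrower, with a median log2 ratio of 1.498 beside -0.36 over all kept promoters. Six2, the transcription factor that maintains progenitor self-renewal, had 17.9 kb in cap mesenchyme and 3.20 kb in ES cells (log2 ratio 2.48). Pax2, a paired-box factor needed for kidney formation, had 20.8 kb in cap mesenchyme and 1.27 kb in ES cells. Uncx, a homeobox factor, had 18491 bp in cap mesenchyme and 2257 bp in ES cells. These peaks lie among the widest of the cap mesenchyme list. Wt1, a zinc finger factor of progenitors and podocytes, had 15487 bp in cap mesenchyme and 3839 bp in ES cells. Eya1, the coactivator that partners Six2, had 12975 bp in cap mesenchyme and 2166 bp in ES cells. Osr1, an early factor of the intermediate mesoderm, had 8.29 kb in cap mesenchyme and 1.51 kb in ES cells. The secreted ligand gene Gdnf, which draws out the ureteric bud, had 8.72 kb in cap mesenchyme and 2.82 kb in ES cells, and the integrin gene Itga8 had 6.61 kb in cap mesenchyme and 1.80 kb in ES cells. Six4 stood at the other end, with 4.13 kb in cap mesenchyme and 8.22 kb in ES cells. Capn6, a calpain-family gene, had 4.36 kb in cap mesenchyme and no ES peak in the gene. Its RNA was 39.3 FPKM in metanephric mesenchyme and higher, 60.1 FPKM, in ureteric bud. ES H3K27me3 lay at 16 of the 25 promoters, beside 9.85% of all promoters. Cap mesenchyme H3K27me3 lay at 2 of the 25, near the 7.08% of all promoters. Ureteric epithelium had H3K4me3 at 24 of the 25, beside 92.6% of all kept promoters. At equal list length 11 were at least 2-fold wider and 6 were gained.

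At several of these genes ES cells had separate small H3K4me3 peaks along the stretch that 1 peak covered in cap mesenchyme. Under the 20.8 kb peak at Pax2 lay 5 ES peaks that covered 60.4% of it, and ES H3K27me3 covered 83.1%. The 17.9 kb peak at Six2 met 2 ES peaks over 32.9% of its length and ES H3K27me3 over 71.4%. At Uncx the corresponding shares were 34.7% and 95.7%, and at Wt1 65.8% and 74.0%. Eya1 differed, with 1 ES peak over 16.7% and no ES H3K27me3 under the cap mesenchyme peak. Cap mesenchyme H3K27me3 covered none of these 5 peaks.

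**Figure D3:**
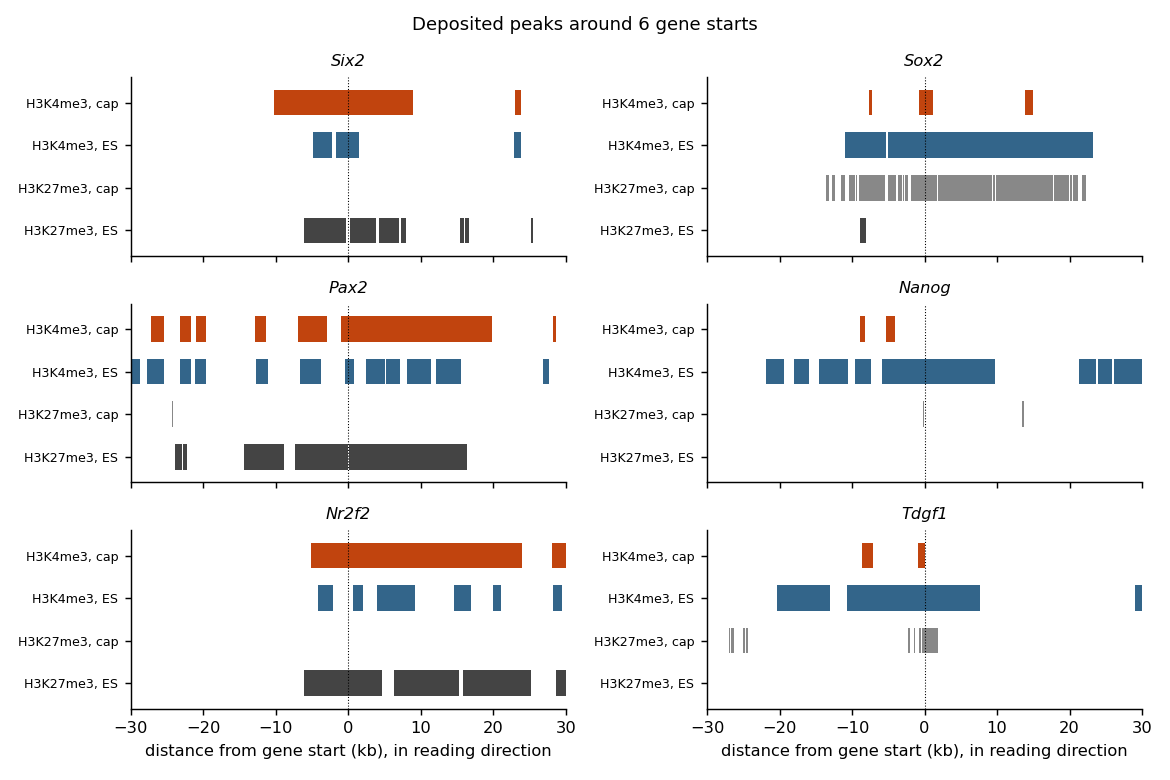
Deposited peaks within 30 kb of 6 gene starts, drawn by distance from the start in kb in the reading direction of the gene, for H3K4me3 in cap mesenchyme (orange) and ES cells (blue) and H3K27me3 in cap mesenchyme (light grey) and ES cells (dark grey). Six2, Pax2 and Nr2f2 have 1 long cap mesenchyme H3K4me3 peak over ES H3K27me3; Sox2, Nanog and Tdgf1 have long ES H3K4me3 peaks, with cap mesenchyme H3K27me3 along Sox2.

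The Hox genes, which give cells their position along the body axis, had the largest median ratio of width among the 15 lists. Of 39 Hox promoters 34 were kept, 3 were gained and 2 were lost, and 21 of the 34 were at least 2-fold wider in cap mesenchyme, with a median log2 ratio of 2.93. These counts are not independent, because 1 peak of 48.2 kb covered 7 HoxA promoters and 1 of 45.5 kb covered 6 HoxB promoters. Hoxb8 had 45.5 kb in cap mesenchyme and 1.07 kb in ES cells (log2 ratio 5.41), and Hoxa10 had 48.2 kb in cap mesenchyme and 1.97 kb in ES cells (4.61). Hoxa11, Hoxc11 and Hoxd11, paralogs that kidney induction requires, had 48.2, 35.5 and 26.8 kb in cap mesenchyme, against 3.77, 3.57 and 2.11 kb in ES cells. In ES cells the stretch at Hoxa10 was divided into 12 H3K4me3 peaks that covered 62.5% of it, and ES H3K27me3 covered 98.1%. ES H3K27me3 lay at all 39 promoters and cap mesenchyme H3K27me3 at 7, beside 9.85% and 7.08% of all promoters. The Hox13 promoters at the 5′ ends of the clusters went the other way, while Hoxd12 was wider, with 26.8 kb in cap mesenchyme and 1.63 kb in ES cells. Hoxa13 had 1.37 kb in cap mesenchyme and 2.74 kb in ES cells, Hoxb13 0.935 kb in cap mesenchyme and 2.58 kb in ES cells, Hoxc13 1.32 kb in cap mesenchyme and 3.19 kb in ES cells, and Hoxd13 1.35 kb in cap mesenchyme and 2.84 kb in ES cells. All 4, and the lost Hoxc12, carried H3K27me3 in both populations. Hoxd4, the other lost gene, had 24.6 FPKM in metanephric mesenchyme and cap mesenchyme H3K4me3 elsewhere in the gene. At equal list length 14 Hox promoters were at least 2-fold wider and 15 were gained.

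Most pluripotency genes had lost H3K4me3 at the start or carried it over a narrower stretch in cap mesenchyme. Of 31 genes 21 were kept, 9 were lost, none was gained and 1 (Esrrb) had neither at its outermost start. Among the 21 kept, 18 were at least 2-fold narrower in cap mesenchyme, with a median log2 ratio of -1.98. Pou5f1, the Oct4 gene at the centre of the pluripotency network, had no peak in cap mesenchyme and 13.6 kb in ES cells. Nanog, its homeobox partner, had none in cap mesenchyme and 12.6 kb in ES cells. Zfp42 (Rex1), a marker of naive ES cells, had none in cap mesenchyme and 20.6 kb in ES cells, and Dppa2, Dppa4, Dppa5a and Tcl1 also had no cap mesenchyme peak anywhere in the gene. Sox2, which pairs with Oct4 on DNA, had 1.96 kb in cap mesenchyme and 25.4 kb in ES cells (log2 ratio -3.69). Tdgf1 (Cripto, a Nodal co-receptor) had 0.942 kb in cap mesenchyme and 18.2 kb in ES cells. Sall4 had 2.29 kb in cap mesenchyme and 19.3 kb in ES cells. Tet1, an enzyme that oxidises methylcytosine, had 2.53 kb in cap mesenchyme and 40.2 kb in ES cells, and Trim71 had 5.62 kb in cap mesenchyme and 45.4 kb in ES cells. Klf4, Tet2 and Dnmt3l stayed within 2-fold. Jarid2, Trim71, Klf4, Tet2, Tet1, Klf2 and Tbx3 kept H3K4me3 wider than the cap mesenchyme median of kept promoters, 2359 bp. Klf4 changed least, with 4.53 kb in cap mesenchyme and 5.84 kb in ES cells. Cap mesenchyme H3K27me3 lay at 13 of the 31 promoters and ES H3K27me3 at 2, beside 7.08% and 9.85% of all promoters. Some of the 13 held little of it, with 141 bp at Klf4 and 168 bp at Nanog. Cap mesenchyme H3K27me3 covered 89.7% of the ES H3K4me3 peak at Sox2, 43.4% at Sall4 and 17.0% at Tdgf1. It covered 1.34% at Nanog and none at Pou5f1, Zfp42, Tet1, Trim71 or Jarid2. Keeping only the higher-scored 50% of peaks, 18 of the 31 were lost and 10 were at least 2-fold narrower.

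Germ cell genes were marked mainly in ES cells. Of 20 genes, 9 were lost, 1 was gained, 1 was kept and 9 had neither. Over all promoters 7.63% were lost, 2.01% gained and 48.7% kept. The meiotic genes Sycp1, Sycp3 and Stra8 had no cap mesenchyme peak, and in ES cells they had 1.46, 3.10 and 4.05 kb. Tex19.1 had no cap mesenchyme peak and 3.61 kb in ES cells. Dazl, an RNA-binding protein gene of germ cells, was the gained one with 1.08 kb in cap mesenchyme. ES H3K27me3 lay at 9 of the 20 promoters and cap mesenchyme H3K27me3 at none, beside 9.85% and 7.08% of all promoters. A list of 20 genes is too short to tell none from 7.08%. In lists of equal length 3 were lost, so most of the lost germ cell peaks were low-ranked ones.

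Regulators of other lineages were mostly narrower in cap mesenchyme, and nearly all carried H3K27me3 in both populations. Of 30 genes 18 were kept, 9 of them at least 2-fold narrower (6 after centring) and none wider, while 8 were lost and 2 gained. Over all genes 16.4% of kept promoters were at least 2-fold narrower, and 7.63% of promoters were lost. The median log2 ratio was -0.97, beside -0.36 over all kept promoters and -0.87 for the housekeeping list. H3K27me3 lay at 28 of the 30 promoters in cap mesenchyme and at 28 in ES cells, beside 7.08% and 9.85% of all promoters. Pax6, a factor of eye and brain, had no H3K4me3 in the window in cap mesenchyme and 4.27 kb in ES cells. Otx2, a forebrain factor, had none in cap mesenchyme and 9.42 kb in ES cells. Neurod1 had 0.860 kb in cap mesenchyme and 3.99 kb in ES cells. In lists of equal length 8 of the 30 were gained and 7 were lost.

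Genes of the other kidney cell types fell into different classes. Of 19 early nephron genes, which mark the first steps of nephron formation, 17 were kept with a median log2 ratio of -0.15, which is 0.21 after centring, and none was gained or lost in the lists as deposited. At equal list length 3 were gained, and with the higher-scored 50% of peaks 2 were gained and 1 was lost. Lhx1 had 4.90 kb in cap mesenchyme and 5.39 kb in ES cells, and Wnt4, the signal for the epithelial transition, had 2.96 kb in cap mesenchyme and 3.86 kb in ES cells. Of 15 tubule transport genes 4 were gained, beside 2.01% of all promoters, 2 were lost, 3 kept and 6 in neither. The gained ones were Slc34a1 (phosphate transporter, 1826 bp), Slc22a6 (organic anion transporter, 2361 bp), Cubn (endocytic receptor, 2502 bp) and Slc3a1 (amino acid transporter subunit, 1500 bp), none of them marked in ureteric epithelium. Their scores of 171.91 to 383.11 lie below the median of the cap mesenchyme list, 449.44, and with the higher-scored 50% of peaks 0 were gained. Their RNA in E11.5 metanephric mesenchyme was between 0 and 0.427 FPKM. Of 13 podocyte genes 10 were kept; the transcription factor genes Foxc2 and Tcf21 were wider, with 9.57 and 3.92 kb in cap mesenchyme, against 3.50 and 1.61 kb in ES cells. Nphs1, the nephrin gene, had 1.25 kb in cap mesenchyme and 7.91 kb in ES cells.

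Ureteric, stromal, endothelial and blood genes were read for other cells that the sort could hold, although a marked promoter alone does not identify a cell type. Of 23 ureteric genes 18 had H3K4me3 in cap mesenchyme and 22 in ES cells. Among the 18 were Wnt11 (5.77 kb in cap mesenchyme), Etv4 (5.03 kb), Sox9 (4.81 kb), Emx2 (2.91 kb) and Ret (2.04 kb). The regulators Gata3, Tfap2a and Tfap2b, and Calb1, were at 0 in cap mesenchyme. These 4 carried H3K27me3 there, at Calb1 only 155 bp, and all 4 had H3K4me3 in ureteric epithelium. Cdh1, the E-cadherin gene, had 2.10 kb in cap mesenchyme and 21.6 kb in ES cells. Of 17 renal stroma genes 16 had H3K4me3 in cap mesenchyme and 15 in ES cells, and 6 were at least 2-fold wider in cap mesenchyme, with a median log2 ratio of 0.85. Nr2f2, a nuclear receptor gene (COUP-TFII), had 29.2 kb in cap mesenchyme and 1.33 kb in ES cells, where 4 further peaks, the widest of 5198 bp, lay along the same stretch. Foxd1, the defining factor of stromal progenitors, had 6.46 kb in cap mesenchyme and 3.11 kb in ES cells. The stromal matrix genes Dcn and Lum were gained with 1.17 and 0.894 kb. Pdgfra, a receptor tyrosine kinase gene, was lost at its start but had cap mesenchyme H3K4me3 elsewhere in the gene and 25.8 FPKM in metanephric mesenchyme. At equal list length 3 stromal genes were at least 2-fold wider and 7 were gained, with a median log2 ratio of 0.33. Of 14 endothelial genes 6 were marked in cap mesenchyme and 9 in ES cells. Pecam1, Cdh5, Tek, Tie1 and Emcn were at 0 in cap mesenchyme. The ureteric epithelium list, from a separate sort, had H3K4me3 at 13 of the 14, these genes among them. Of 14 blood genes 3 were marked in cap mesenchyme and 5 in ES cells, with Ptprc, Spi1 and Csf1r at 0 in cap mesenchyme. The part of other cells in the stromal counts, and in the ureteric list used for comparison throughout, was not tested.

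Genes for the mark's own enzymes and common housekeeping genes serve as a comparison. Of 23 writers and erasers 20 were kept, 5 of them at least 2-fold narrower and none wider, with a median log2 ratio of -0.35. Kdm5b, an H3K4 demethylase, had 3888 bp in cap mesenchyme and 20040 bp in ES cells, and Eed, a Polycomb subunit, had 3.75 kb in cap mesenchyme and 11.1 kb in ES cells. Kmt2a and Kmt2d, both H3K4 methyltransferases, stayed within 2-fold, with 4.93 and 6.26 kb in cap mesenchyme, against 5.31 and 6.45 kb in ES cells. Of 18 housekeeping genes 16 were kept, with 5 at least 2-fold narrower (3 after centring), none wider and a median log2 ratio of -0.87, lower than the median of all kept promoters. Rpl13a had 3.99 kb in cap mesenchyme and 15.4 kb in ES cells.

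**Figure D4:**
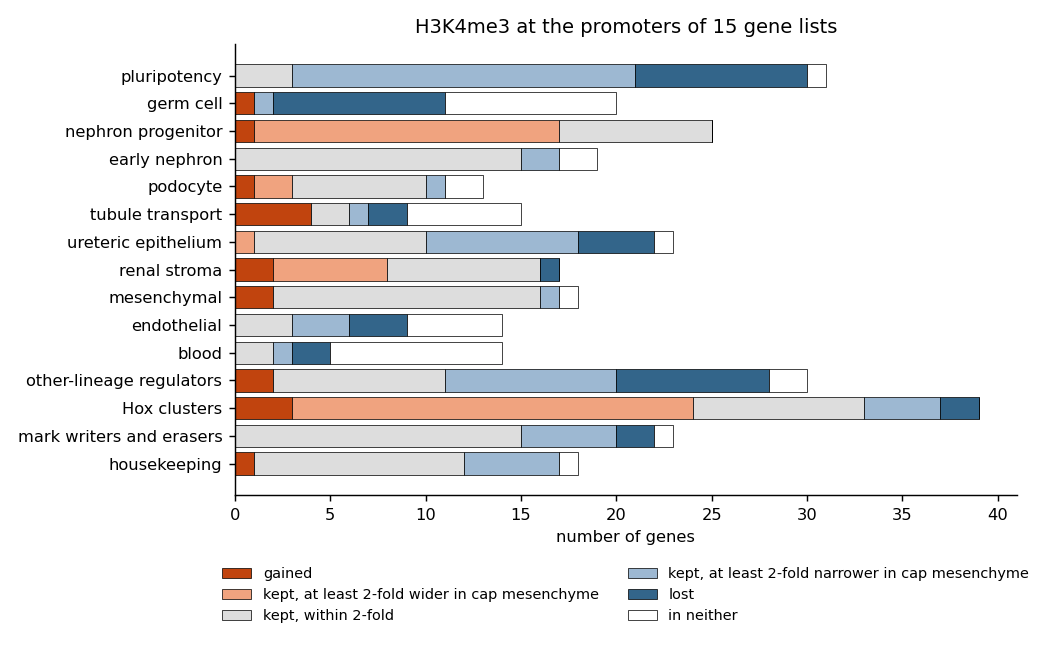
Number of genes in each of 15 lists by class of H3K4me3 at the promoter, from gained and wider in cap mesenchyme on the left to lost and in neither on the right. The Hox and nephron progenitor lists hold the most wider promoters (21 and 16), and the pluripotency list the most narrower ones (18).

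Among all protein-coding genes, the widest gained promoters after Hoxb3 and Hoxd9 included Ccdc80 (6.30 kb), Ttc36 (5.23 kb), Thra (5.17 kb), Rcsd1 (4.79 kb), Il33 (4.68 kb), Capn6 (4.36 kb) and Dnaaf2 (4.32 kb). Ccdc80, a secreted matrix protein, had no ES peak in the gene and 15.2 FPKM. Hoxd9 and Capn6 also had no ES peak in the gene. Hoxb3, Ttc36, Thra, Rcsd1, Il33 and Dnaaf2 had an ES peak within the gene or within 1 kb of it. At Rcsd1 an ES peak covered 46.4% of the cap mesenchyme peak. Thra encodes a thyroid hormone receptor. The widest lost promoters were Jade1 (35.6 kb), Cd68 and Tnfsf13 on 1 peak (34.6 kb), Fam169a (28.3 kb), Itgb7 (23.9 kb), Dppa5a (21.0 kb), Gm38457 (21.0 kb), Zfp42 (20.6 kb), Trip12 (20.1 kb), Lrrc2 (18.2 kb) and Fbxo15 (17.0 kb). Of these, Dppa5a and Zfp42 had no cap mesenchyme peak anywhere in the gene, while the others had one within the gene or within 1 kb of it. The ES peak at Lrrc2 is also that of Tdgf1, and the one at Dppa5a is also that of Ooep. Tdgf1 and Ooep were kept and narrower. The strongest narrowing was at Sox15, a Sox factor gene, with 1.03 kb in cap mesenchyme and 34.6 kb in ES cells on the peak shared with Cd68. Hsd17b14, Tdgf1, Tdh, Nanos3 and Tet1 followed, with log2 ratios of -4.52, -4.27, -4.24, -4.08 and -3.99. Pcsk1n, 2410137M14Rik, Ooep and Capns1 completed the 10, with ratios between -3.91 and -3.87. Tdh, threonine dehydrogenase, had 1.02 kb in cap mesenchyme and 19.3 kb in ES cells, and Nanos3, a germ cell gene, had 650 bp in cap mesenchyme and 11030 bp in ES cells. Besides Hox genes the strongest widening was at Nr2f2 (4.45), Pax2 (4.04), Ager (3.86), Uncx (3.03) and Gse1 (2.96). At Ager, 93.2% of the cap mesenchyme peak was under ES peaks, and the 10.3 kb ES peak over most of it touched the windows of Gpsm3 and Pbx2, not that of Ager.

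Promoters wider in cap mesenchyme stood on ES H3K27me3 more often than the other classes. ES H3K27me3 lay at 94 of the 160 wider promoters, or 58.8% (50.7% to 66.5%), beside 18.6% of those within 2-fold, 10.6% of the narrower ones and 9.85% of all promoters. That interval takes promoters on the same peak as independent. Counted by distinct peak, the number was 57 of 115 (49.6%). Without Hox genes ES H3K27me3 lay at 50 of 99 protein-coding wider promoters (50.5%, 40.3% to 60.7%). Cap mesenchyme H3K27me3 lay at 7 of the 160 wider promoters (4.38%), at 13.6% of the narrower ones and at 7.08% of all promoters. Of the 3281 promoters with ES H3K27me3, 2860 were kept, and a kept promoter cannot be a gained one. Gained promoters carried ES H3K27me3 in 44 cases (6.57%), beside 17.6% of kept promoters, 1.43% of those with neither and 9.85% of all. Lost promoters carried cap mesenchyme H3K27me3 in 209 cases (8.23%), beside 9.88% of kept promoters, 3.64% of those with neither and 7.08% of all. With the higher-scored 50% of peaks the share of lost promoters was 425 of 2196 (19.4%), and that of gained promoters 271 of 702 (38.6%). In lists of equal length 418 of 1718 gained promoters (24.3%) carried ES H3K27me3, so these shares depend on which peaks are kept. Ureteric epithelium had H3K4me3 at 264 gained promoters (39.4%) and at 119 lost promoters (4.68%), beside 92.6% of kept and 46.7% of all promoters. With the higher-scored 50% of peaks the shares were 84.2% of gained and 17.6% of lost promoters, and at equal list length 55.9% of gained and 5.40% of lost ones.

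RNA was available for 30646 of the genes, and 32.9% of them reached 1 FPKM in metanephric mesenchyme, a tissue taken earlier than the sorted cells and holding other cells too. The share was 14.9% for gained promoters (91 of 610) and 7.71% for lost promoters (171 of 2219), beside 60.5% for kept and 3.89% for those with neither. Counting also genes without an RNA value, 91 of 670 gained promoters reached 1 FPKM in the lists as deposited. In lists of equal length 320 of 1718 did, and with the higher-scored 50% of peaks 229 of 702. The share for gained promoters therefore depends on which peaks are used. Among lost promoters without a cap mesenchyme peak in the gene the share was 1.69%. Within the kept class, 73.5% of the wider promoters (108 of 147) reached 1 FPKM with a median of 6.96 FPKM. Promoters within 2-fold reached it in 61.4% (median 2.30 FPKM) and narrower ones in 55.2% (median 1.63 FPKM). RNA of ES cells was not analysed here, so these are levels in 1 tissue and not changes.

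**Figure D5:**
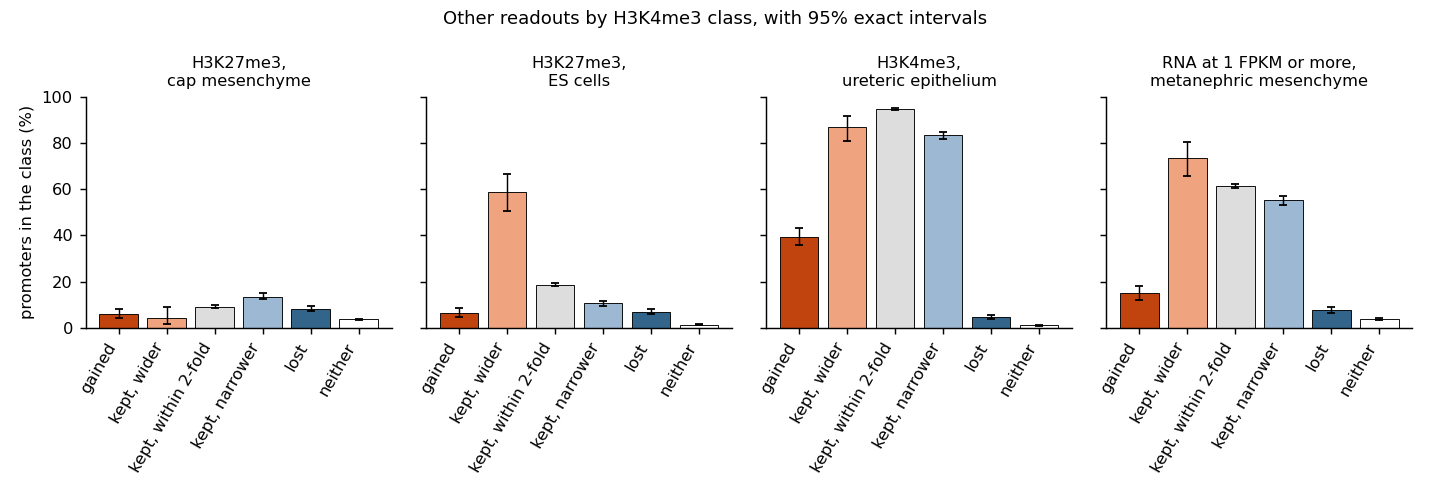
Percent of promoters in each H3K4me3 class that carry H3K27me3 in cap mesenchyme, H3K27me3 in ES cells, H3K4me3 in ureteric epithelium, or RNA at 1 FPKM or more in metanephric mesenchyme, with 95% exact intervals. ES H3K27me3 stands at 58.8% in the wider class and at or below 18.6% in the other classes. Promoters on the same peak are counted separately, and by distinct peak the wider class stands at 49.6%.

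Gained and lost promoters were poor in CpG. Over 32619 starts listed by RefSeq, each classed by its own window, the 300-base promoter held a median of 5 CpG for gained, 5 for lost, 20 for kept and 3 for starts with neither. An observed over expected CpG ratio of at least 0.6 was found at 8.96% of gained, 7.93% of lost and 69.2% of kept starts. Within the kept class the wider promoters had a median of 13 CpG, those within 2-fold 21 and the narrower ones 20. The motifs counted on both strands were the TATA box TATAAA, the octamer ATGCAAAT bound by Oct factors, and CCGGAAGT, an ETS-type site. TATAAA was present in 15.6% of gained, 13.4% of lost, 6.59% of kept and 13.7% of all listed promoters. ATGCAAAT was present in 1.91% of gained, 1.63% of lost, 1.29% of kept and 1.75% of all. CCGGAAGT was present in 0.294% of gained, 1.87% of lost, 7.02% of kept and 3.91% of all. TATAAA and ATGCAAAT can overlap by their letters, so 1 stretch can count for both, and a match describes the sequence only.

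Away from promoters, the widest lost ES peak lay in the gene body 19.4 kb from the start of Etv5, an ETS factor gene of ES cells and kidney, and spanned 24.8 kb (chr16:22394208-22418963, mm10). The next lay near Usp7 (19.9 kb), Macf1 (17.1 kb), Tns3 (17.0 kb) and Tmem191c (16.7 kb), and ureteric epithelium had no H3K4me3 at any of the 5. The widest gained peaks away from promoters were 2 near Gm15319 (10.9 and 6.99 kb), 1 near 9230019H11Rik (6.52 kb), 1 near Pdia4 (6.51 kb) and 1 in the gene body near Lsp1 (6.20 kb). Ureteric epithelium had H3K4me3 at the 2 peaks near Gm15319 and at the one near 9230019H11Rik. The reference genome was not used here, so repeats at these intergenic peaks were not checked.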

How the data were processed

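The peak lists are those the authors deposited, 1 per sample. The submitters' processing notes name Bowtie2, MACS, TopHat, Cufflinks, Cuffdiff and mm10. Tool versions, settings, controls and how many libraries each list pools are not given in the sources used here. A deposited peak carries a score from the authors' caller, whose meaning is not given; it was used only to rank peaks within a list. RNA values are the authors' deposited FPKM, summed here per gene. The 3 input libraries were not analysed here.

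Peaks and genes on chromosomes 1 to 19 and X were used, in Python 3.11.15 with pandas 2.3.3, numpy 2.4.6 and scipy 1.17.1, after a test on simulated intervals. Gene positions came from RefSeq on GRCm38.p6, the assembly of mm10. Of 34328 genes, 1017 without a strand were left out. Strand came from the promoter table for 26794 genes and from where each locus stands in the deposited RNA table for 6517; that place matched for 24129 of 24129 genes with both. The promoter was the outermost start plus and minus 1 kb. Gene lists numbered 15, with 314 different genes. Genes named are all list members discussed, the 10 protein-coding genes with the widest gained and lost promoters, the 10 with the largest and smallest width ratios, and the 5 widest gained and lost peaks off promoters; a peak over several genes counts once. Some genes that the rule names are not reported here. The members and lists were chosen with earlier results of these data known.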

Additional observations from a re-analysis of the deposited data

How the results depend on the processing

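Of 114 alternative values, 88 stayed within 1.5 times the reported one and 26 moved. All 14 results stayed within that range when at least 50% cover was required, when peaks under 1 kb apart were merged and when chromosome X was left out, and so did all 10 promoter results with windows of 500 bp or 2 kb or with any listed start. With the ES list at the length of the cap mesenchyme list, 14616 ES peaks were lost, 1718 promoters were gained and 1277 lost, 136 lost promoters carried cap mesenchyme H3K27me3, 418 gained ones ES H3K27me3, 960 gained and 69 lost ones ureteric H3K4me3, and 320 gained ones reached 1 FPKM. Keeping only the higher-scored 50% of peaks, 1609 cap mesenchyme peaks were gained and 14851 kept, 18662 ES peaks were lost and 14685 kept; 425 lost promoters carried cap mesenchyme H3K27me3, 271 gained ones ES H3K27me3, 591 gained and 387 lost ones ureteric H3K4me3, and 229 gained ones reached 1 FPKM. With protein-coding genes only, which leaves fewer genes, 330 promoters were gained and 1183 lost, 114 lost ones carried cap mesenchyme H3K27me3, and 141 gained and 61 lost ones ureteric H3K4me3. At 0.1 FPKM 220 gained promoters counted as expressed, and at 5 FPKM 33. Centring the width ratio, chosen after seeing the data as was any listed start, gave 353 wider and 1476 narrower promoters. Why the counts moved was not tested beyond these constructions. No paired analysis was possible because each group holds 1 sample. Read depth is unknown, so a missing peak may be one not detectable at the depth of its list.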

Other observations

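Some gene families and neighbours shared a class along the genome; they were picked out after their values were seen. Over all promoters 2.01% were gained and 7.63% lost. Of 12 protocadherin alpha genes, which give neurons alternative cell surface identities, 9 promoters were lost, 2 kept and 1 in neither, and 10 lost promoters stood in a row from Pcdha1 to Pcdha7 with 3 predicted genes among them. Of 21 protocadherin gamma promoters 10 were lost and 11 kept, and of 22 protocadherin beta promoters 4 were gained and 6 lost. ES H3K27me3 lay at 9 alpha, 17 gamma and 13 beta promoters. Of 396 Zfp zinc finger genes 345 were kept and 26 lost (6.57%, near the 7.63% of all promoters); the lost ones include the neighbours Zfp985, Zfp979, Zfp534 and Zfp984; these copies are alike in sequence, and how reads were divided among them is not given. Of 39 Prss serine protease genes 14 were lost and none gained. Of 1105 olfactory receptor genes 12 were lost and 1088 had neither. Other neighbours lost together were Gdf3, Dppa3 and Nanog; Dppa4, Dppa2 and Morc1; and Triml2, Triml1 and Zfp42. Capn6 and Dcx on chromosome X were gained together, as were Ifit3b, Ifit1bl2 and Ifit1.

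Hprt, the purine salvage gene often used as a housekeeping reference, had 1.98 kb of H3K4me3 in cap mesenchyme, 2267 bp in ureteric epithelium and none in ES cells. No ES peak lay in the gene, and the nearest ES peaks were 74.1 kb before and 61.7 kb after its start, against 61.2 kb before and 61.9 kb after it in cap mesenchyme. E14Tg2a, a widely used derivative of E14, is known as an Hprt-deficient line; the labels name E14 only, and whether the cells used here carry that change was not tested. In the HoxB cluster the ureteric list had no H3K4me3 peak over 71.2 kb around Hoxb7, where cap mesenchyme had 6 peaks and ES cells 12. At E11.5, earlier than the E15.5 ureteric chromatin, Hoxb7 RNA was 75.8 FPKM in ureteric bud and 9.95 FPKM in metanephric mesenchyme. The comparison of HoxB promoters with ureteric epithelium is limited by that gap, whose cause was not tested.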
